A study of Mus musculus with 9 samples.

Results

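The 40 genes described here serve protein folding in the endoplasmic reticulum (ER) and the stress response that runs through the transcription factor Atf4. The rule that chose them is a list of names and uses no measured value, though it was made with earlier results of these data known. They are 40 of the 52780 genes in the count table. The list holds 10 ER chaperones and cochaperones, 4 protein disulfide isomerases, 5 collagen-folding genes, 4 genes of translocation, export and disposal, 5 stress sensors and transmembrane factors, 5 regulators of the Atf4 branch, and 7 genes of amino acid supply and one-carbon metabolism. All 40 passed the filter on low counts, which left 19545 genes. The question was whether the machinery that folds secreted proteins followed the genes of the extracellular matrix, which are among its clients.

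The cells were C2C12, an immortal mouse myoblast line that exits the cell cycle and fuses into myotubes when fetal serum is exchanged for horse serum. Cells received si Ctrl, si mH2A1.1 or si mH2A1.2, with 3 samples of each, and poly(A) mRNA was sequenced at day 4 of differentiation in single reads of 50 bp. The small interfering RNAs were used at 10 nM and were delivered on the day after seeding, on the day of the medium change and again 2 days later. They target the splice isoforms macroH2A1.1 and macroH2A1.2 of a histone variant that carries a macrodomain. The labels call the control cells wild type, whereas the name si Ctrl used here is the study's. All samples come from the same cell line, and the study describes the samples of a condition as independent biological replicates.

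Secreted proteins enter the ER through a translocon and are folded there by the Hsp70-type chaperone Hspa5 (BiP), by the lectin chaperones calnexin and calreticulin, and by disulfide isomerases. Unfolded protein is sensed by Ire1 (Ern1), Perk (Eif2ak3) and Atf6, which raise chaperone transcription through Xbp1 and Atf6 and raise Atf4 translation through phosphorylation of the initiation factor eIF2α. Several other eIF2α kinases feed the same Atf4 branch, which drives genes of amino acid synthesis and uptake. Procollagen needs helpers of its own, among them Serpinh1 (Hsp47), which binds the triple helix, the Crtap, P3h1 and Ppib complex, which hydroxylates prolines and isomerizes prolyl bonds, and the isomerase Fkbp10.

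The promoters of the members show which of them carry the known elements of these responses, and RefSeq (GRCm38.p6) gave a promoter, from 250 bases before to 50 bases after the start, for 34 of the 40. The ER stress element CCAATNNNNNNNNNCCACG, bound by Atf6 together with the factor NF-Y, was found on either strand in 6 members, 5 chaperones or cochaperones and Pdia6, and in 0.119% of all 32851 promoters. It was found in 0 of the 4 collagen-folding genes with a promoter in the table. The matches are shown with the flanking bases, 5′ to 3′ on the strand of the gene, with the motif in capitals, which reads as its reverse complement in Calr, Creld2 and the second window of Hsp90b1.
Hspa5 (chr2:34772020-34772049, plus strand): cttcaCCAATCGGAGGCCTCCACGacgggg
Hsp90b1 (chr10:86705632-86705661, minus strand): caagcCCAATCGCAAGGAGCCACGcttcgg
Hsp90b1 (chr10:86705527-86705556, minus strand): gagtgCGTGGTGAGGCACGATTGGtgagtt
Calr (chr8:84847069-84847098, minus strand): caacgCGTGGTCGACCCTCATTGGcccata
Canx (chr11:50325794-50325823, minus strand): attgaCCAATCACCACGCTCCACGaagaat
Creld2 (chr15:88819515-88819544, plus strand): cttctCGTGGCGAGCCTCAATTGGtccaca
Pdia6 (chr12:17266486-17266515, plus strand): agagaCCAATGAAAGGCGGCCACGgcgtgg

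The composite element of C/EBP and Atf4, TGATGNAAN, was found in 5 members and in 3.95% of all promoters. The 4 matches that lie upstream of the start are shown because Asns and Chac1 are among the genes that spread most within a condition, with the motif in capitals, as its reverse complement except in Asns. The fifth, in Trib3, lies past the start and is not shown. No promoter held both elements among the members. The letters TGACGTGG, the core of the unfolded protein response element, and TGACGTCA, the cyclic AMP response element, were found in 0 members, and in 0.676% and 1.79% of all promoters. A match of letters is a description of these windows only.
Asns (chr6:7693213-7693242, minus strand): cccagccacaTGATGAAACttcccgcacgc
Chac1 (chr2:119351038-119351067, plus strand): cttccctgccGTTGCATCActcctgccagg
Atf3 (chr1:191183425-191183454, minus strand): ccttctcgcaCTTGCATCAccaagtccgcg
Herpud1 (chr8:94386306-94386335, plus strand): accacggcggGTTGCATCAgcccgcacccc

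Estimated counts per sample summed to between 36924252 and 42223108, and the 40 genes took 0.8002% to 1.15% of them. H2afy, which encodes both isoforms and whose reads the table sums, was at 56.3, 62.4 and 61.0 CPM (a gene's count relative to the library size after TMM scaling) with si Ctrl, 38.8, 30.01 and 30.9 CPM with si mH2A1.1 and 46.8, 47.2 and 43.2 CPM with si mH2A1.2, in the order of the replicate numbers. The log2 fold changes against si Ctrl were -0.85 (adjusted p = 0.00331, edgeR) and -0.39 (adjusted p = 0.108), so the gene total passed the test in the first knockdown only, and the isoforms were not separated. The myotube label fitted its markers, with Myh3 at 4305 to 8065 CPM, while the macrophage marker Adgre1 and the epithelial marker Epcam had at most 0.027 CPM in any sample. Another marker of the leukocyte list, Cd68, reached 11.1 CPM with si mH2A1.1 and is described below. The 10 interferon-stimulated genes of the reference list were all called higher with si mH2A1.1 (median log2 fold change 3.71), beside 6.18% of all tested genes. With si mH2A1.2, 0 of them were called (1 at an unadjusted p under 0.05, and 1 lower by DESeq2).

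Levels of different genes were compared as CPM per kilobase of exon. In the si Ctrl samples Serpinh1 was the most abundant member, with 472 ± 93.1 CPM per kilobase (SD, n = 3), followed by the disulfide isomerase P4hb, which is also the β subunit of prolyl 4-hydroxylase, with 313 ± 44.6, and the ER Hsp90 protein Hsp90b1 with 284 ± 57.4. Hspa5 had 222 ± 63.3, and the SDs of these 4 genes overlap between neighbours in the order, except between Serpinh1 and P4hb. At the lower end were the sensors Ern1 with 6.40 ± 0.560 and Eif2ak3 with 5.18 ± 0.522, and Atf3 with 6.28 ± 2.17. Serpinh1 was also the highest member in the si mH2A1.1 samples (416 ± 71.9) and in the si mH2A1.2 samples (603 ± 125).

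A member was called at an adjusted p below 0.05 in edgeR's quasi-likelihood test, adjusted over all 19545 genes. With si mH2A1.1, 0 of the 40 members were called against si Ctrl, where 11.1% of all tested genes were called (6.18% higher and 4.93% lower). The si mH2A1.2 samples also gave 0 of 40, where 2.35% of all genes were called (1.37% higher and 0.982% lower). At an unadjusted p under 0.05, 6 and 5 members differed, beside 5789 and 3109 of all 19545 genes. DESeq2 called 2 members with si mH2A1.1 (1 higher, 1 lower) and 3 with si mH2A1.2 (all higher), beside 3354 and 1113 of the 37475 genes with a count. These 37475 include low-count genes outside the 19545, which DESeq2 can leave without an adjusted p. A share of them is therefore not comparable with the edgeR shares. With the replicate number as a block, edgeR called 2 higher and 2 lower with si mH2A1.1, beside 11.1% and 9.70% of all genes, and 3 higher and 0 lower with si mH2A1.2, beside 2.90% and 2.25%. Directly between the knockdowns, 6 of the 40 members (15%) were called, 1 higher and 5 lower with si mH2A1.1 than with si mH2A1.2, where 22.5% of all genes were called, 12.0% higher and 10.5% lower. The block gave 2 higher and 8 lower, beside 15.4% and 13.6% of all genes. DESeq2 also gave 2 higher and 8 lower, beside 5037 calls in either direction among the 37475 genes with a count, not all of which need have an adjusted p. The 6 calls lay in 3 of the 7 groups of the list, and 5 of them were lower, or 12.5% of the members. Members whose samples did not overlap numbered 5 (12.5%) in the si mH2A1.1 comparison with si Ctrl, 6 (15%) in that of si mH2A1.2 and 16 (40%) between the knockdowns, beside 34.2%, 22.5% and 39.7% of all genes. The 3 comparisons share samples, so their values are not independent of each other.

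**Figure D1:**
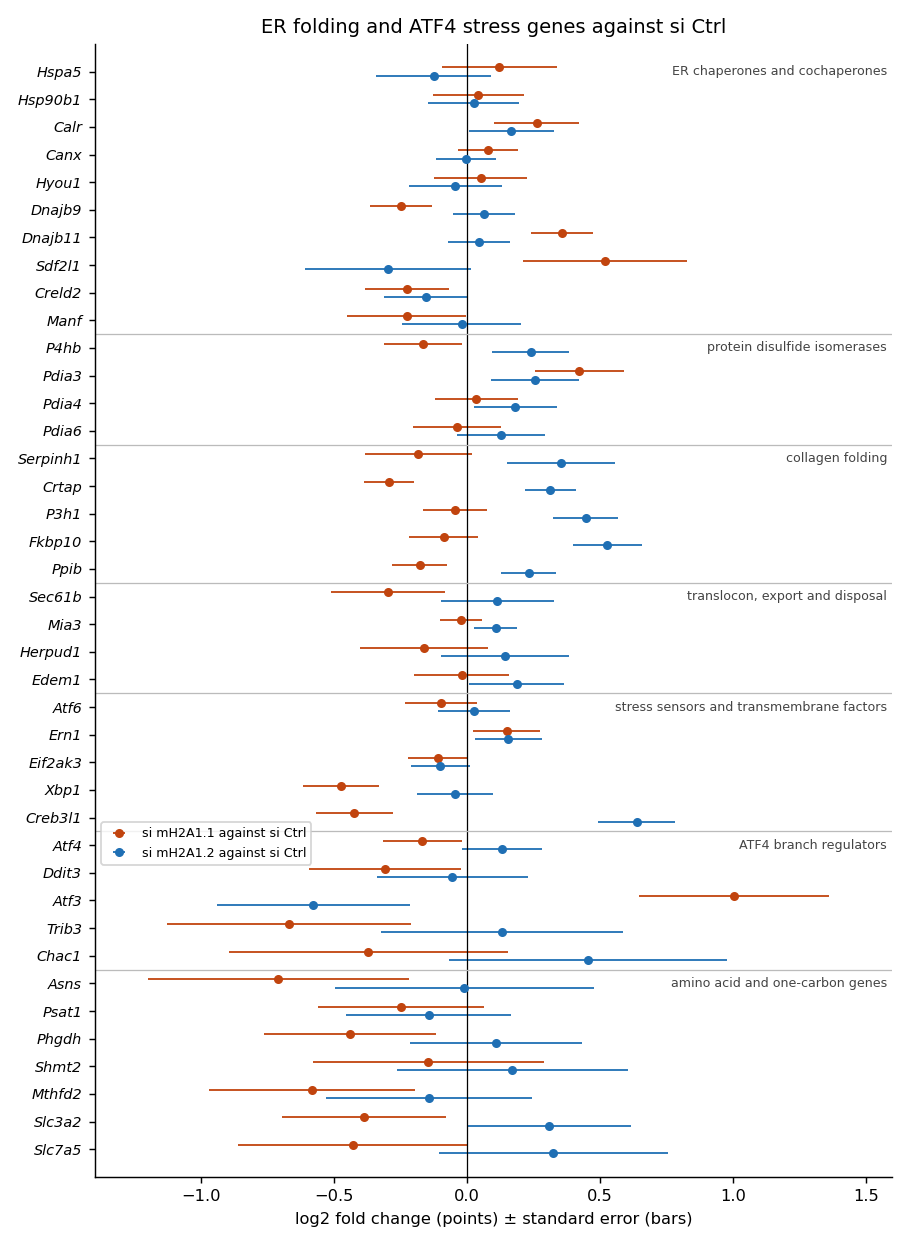
Log2 fold change of each of the 40 genes against si Ctrl (horizontal axis, points) with its standard error (bars), for si mH2A1.1 and si mH2A1.2, in the groups named at the right. The 5 collagen-folding genes lie at or above 0.23 with si mH2A1.2 and below 0 with si mH2A1.1, the 10 chaperones and cochaperones lie on both sides of 0, and the bars are long for Asns, Slc7a5, Trib3 and Chac1.

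The matrix genes themselves moved in opposite directions. Of 30 matrix clients (fibrillar and other collagens, fibronectin and further secreted matrix proteins), 16 fell and 0 rose with si mH2A1.1, while 4 rose and 0 fell with si mH2A1.2, and their median log2 fold changes were -0.67 and 0.68 (all genes: -0.0091 and -8.3e-05). Col1a1, the α1 chain of type I collagen, was at 2108, 3332 and 3396 CPM with si Ctrl, 268, 843 and 588 CPM with si mH2A1.1 and 9381, 7670.2 and 6435 CPM with si mH2A1.2. The groups did not overlap, and the knockdowns differed by -3.79 on the log2 scale (adjusted p = 0.00035). For Col1a2, the partner chain, it was -1.403 (adjusted p = 0.00114), and for Fn1, fibronectin, -1.96 (adjusted p = 0.00137). In the same comparison 23 matrix clients were lower and 1 higher, beside 10.5% and 12.0% of all genes. For si mH2A1.2 against si Ctrl the block called 9 matrix clients higher and 1 lower, beside 2.90% and 2.25% of all genes. DESeq2 called 16 of them higher and 1 lower. Fmod, a collagen-binding proteoglycan, was at 0.0691 to 0.222 CPM with si mH2A1.1, where its lowest sample had 3 counts, and at 34.0 to 162 CPM with si mH2A1.2. Thbs1, a matricellular glycoprotein, had a log2 fold change of -2.01 and Col11a1 of -4.43 between them. These lists and directions were known from earlier work on these samples and are given as the reference for the folding genes.

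The medians of the 40 members were nearer to 0 than those of the matrix clients. Their value on the log2 scale relative to si Ctrl was -0.16 in the si mH2A1.1 samples and 0.12 in the si mH2A1.2 samples, and -0.28 between the knockdowns, against -1.43 for the matrix clients in the last comparison. The 5 collagen-folding genes had medians of -0.18, 0.35 and -0.54, in the same order, and 4 of the 5 were called lower with si mH2A1.1 than with si mH2A1.2, where 10.5% of all genes were. With the block, 1 was lower, 2 were higher and 5 were lower in that order, beside 9.70%, 2.90% and 13.6% of all genes. DESeq2 gave 0, 2 higher and 5 lower (1, 4 and 5 at an unadjusted p under 0.05). The 10 chaperones and cochaperones had medians of 0.065, -0.012 and 0.089 with 0 called in each comparison (1, 0 and 3 at an unadjusted p under 0.05, 0, 0 and 1 by DESeq2, and 1, 0 and 1 with the block, which called Dnajb11 higher). The summed matrix CPM per summed chaperone CPM was 10.9 to 16.7 with si Ctrl, 4.91 to 10.1 with si mH2A1.1 and 16.9 to 25.0 with si mH2A1.2, and the groups did not overlap. The summed matrix CPM alone did not overlap either, at 42062 to 48735.5, 22068 to 34690 and 61095 to 82035 in that order. The summed chaperone CPM did overlap, at 2742 to 4010, 3435 to 4492 and 3285 to 3682, so the separation of this ratio restates the matrix shift. Per summed collagen-folding CPM the ratio was 22.8 to 33.04, 14.3 to 21.7 and 32.5 to 34.9. Here si mH2A1.2 overlapped si Ctrl through si Ctrl replicate 3 alone, and si mH2A1.1 lay below both. Serpinh1 averaged 1154, 1016 and 1474 CPM of mean collagen-folding sums of 1645, 1464 and 2120 CPM in that order. It made up most of the sum, so this ratio says little of the other collagen-folding genes.

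**Figure D2:**
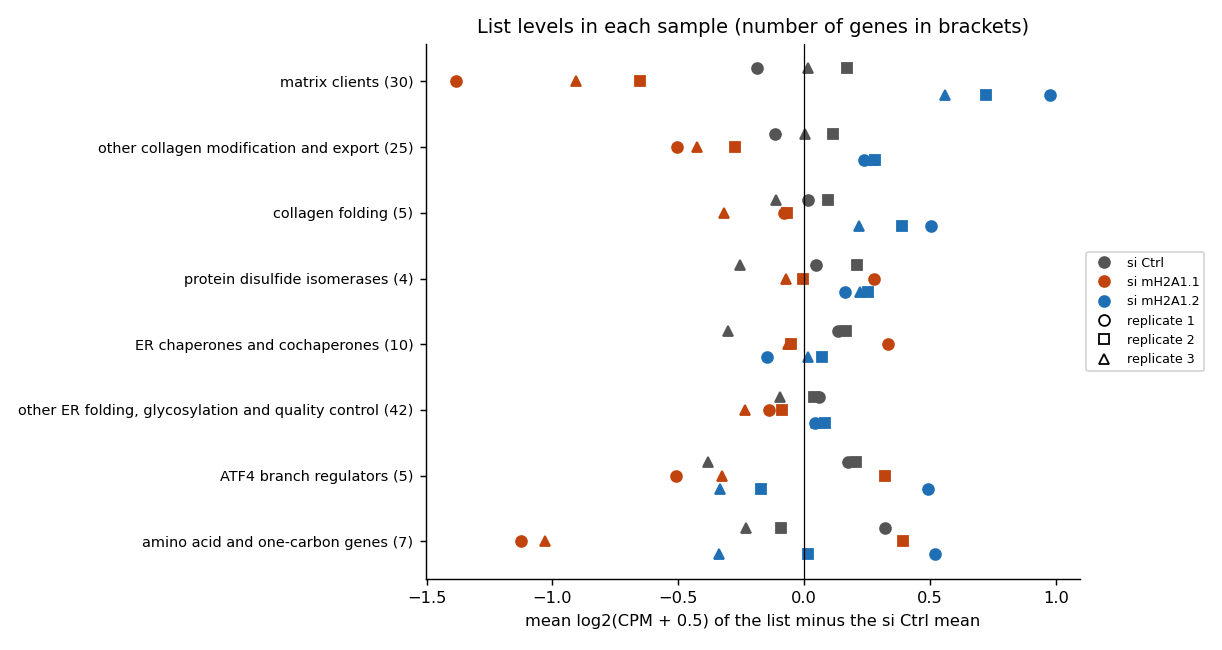
Level of each gene list in each sample, as the mean log2(CPM + 0.5) of its genes minus the si Ctrl mean (horizontal axis), with the number of genes in brackets, colours for the conditions and symbols for the replicate numbers. The matrix clients spread from -1.38 to 0.98, the collagen-folding genes from -0.32 to 0.50, and si mH2A1.1 replicate 2 lies apart from the other si mH2A1.1 samples in the amino acid list.

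Markers of other cell states moved with these comparisons. All 6 proliferation markers were called higher with si mH2A1.1 than with si mH2A1.2, beside 12.0% of all genes. In the comparisons with si Ctrl 0 were called (5 and 0 at an unadjusted p under 0.05, 3 and 0 by DESeq2, 5 and 0 with the block). Their summed level was 272 to 436 CPM with si Ctrl, 388 to 820 CPM with si mH2A1.1 and 213 to 320 CPM with si mH2A1.2. Of 5 fibroblast markers 4 could be tested. Pdgfrb and Dpt were called higher with si mH2A1.2 and lower in the direct comparison, beside 1.37% and 10.5% of all genes. The other tested markers, Pdgfra and Thy1, were called in no comparison by edgeR, with or without the block, or by DESeq2. With si mH2A1.1 against si Ctrl, Pdgfrb was called lower (-1.31, adjusted p = 0.0131), and Dpt had -1.22 (adjusted p = 0.0571, with 0.0134 under the block and 0.00664 from DESeq2), while Tcf21 had at most 0.052 CPM in any sample. The summed fibroblast level was 98.5 to 207 CPM, 62.1 to 85.7 CPM and 386 to 439 CPM in the order si Ctrl, si mH2A1.1, si mH2A1.2. Pdgfrb alone averaged 141, 56.8 and 357 CPM in that order, so it made up most of this sum. Of 10 myotube markers 2 were called lower and 0 higher with si mH2A1.1, and 3 lower and 0 higher with si mH2A1.2. Of all genes, 4.93% and 0.982% were called lower in these comparisons. With the block, 2 were higher (Ckm and Des) and 3 lower with si mH2A1.1, beside 11.1% and 9.70% of all genes. With si mH2A1.2 the block gave 0 higher and 4 lower, beside 2.90% and 2.25%. DESeq2 gave 1 higher and 3 lower, and 0 higher and 4 lower. Their summed levels were 18757 to 27815, 17734 to 21458 and 16072 to 20378 CPM in the order si Ctrl, si mH2A1.1, si mH2A1.2. Between the knockdowns 4 of the 10 myotube markers were higher and 1 lower with si mH2A1.1, and of 5 myoblast markers 2 were higher and 3 lower. Of all genes, 12.0% were called higher and 10.5% lower in this comparison. Of 4 leukocyte markers Cd68 alone could be tested, at 2.58 to 3.62 CPM with si Ctrl, 5.73 to 11.1 CPM with si mH2A1.1 and 2.84 to 3.25 CPM with si mH2A1.2, and the 4 endothelial and epithelial markers had at most 0.933 CPM. The part of these markers in the folding genes was not tested, and in bulk samples fewer cells of a type cannot be told apart from less mRNA per cell.

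Crtap, the cartilage-associated protein of the prolyl 3-hydroxylation complex (ENSMUSG00000032431, chromosome 9, 114375134 to 114390675, minus strand), was at 44.5, 52.3 and 45.2 CPM with si Ctrl, 39.6, 40.5 and 35.7 CPM with si mH2A1.1 and 58.0, 61.2 and 57.3 CPM with si mH2A1.2. Every si mH2A1.1 sample was below, and every si mH2A1.2 sample above, the control samples. The direct comparison of the knockdowns put them -0.61 apart on the log2 scale (standard error 0.095, adjusted p = 0.0022, edgeR), a 1.52-fold lower level, and it was called without each of the 9 samples in turn. Against si Ctrl it was -0.29 with si mH2A1.1 (adjusted p = 0.0699, and 0.0289 with the replicate block) and 0.31 with si mH2A1.2 (adjusted p = 0.128).

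Fkbp10, the ER prolyl isomerase FKBP65 (ENSMUSG00000001555, chromosome 11, 100415697 to 100424824, plus strand), was at 186, 226 and 187 CPM with si Ctrl, 186, 199.5 and 178 CPM with si mH2A1.1 and 329, 294 and 241 CPM with si mH2A1.2. The si mH2A1.2 samples lay above all others, while si mH2A1.1 and si Ctrl overlapped. Between the knockdowns it differed by -0.61 on the log2 scale (standard error 0.13, adjusted p = 0.00906), and 0.53 for si mH2A1.2 against si Ctrl (adjusted p = 0.0678, with 0.0309 under the block and 0.0071 from DESeq2). For si mH2A1.1 against si Ctrl the 95% interval ran from -0.38 to 0.20.

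P3h1, the prolyl 3-hydroxylase itself (ENSMUSG00000028641, chromosome 4, 119232915 to 119248975, plus strand), showed the same arrangement, with 71.4, 69.1 and 66.2 CPM, 72.4, 68.2 and 59.6 CPM and 111, 88.6 and 82.1 CPM in the order si Ctrl, si mH2A1.1, si mH2A1.2. Again only the si mH2A1.2 samples stood apart, above the other 6. The difference between the knockdowns was -0.49 (standard error 0.12, adjusted p = 0.0173, and 0.0686 without si mH2A1.1 replicate 3). With si mH2A1.2 against si Ctrl it was 0.45 (adjusted p = 0.0933, with 0.0255 under the block and 0.03 from DESeq2).

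Ppib, the prolyl isomerase cyclophilin B and the remaining subunit of that complex (ENSMUSG00000032383, chromosome 9, 66060222 to 66066623, plus strand), was at 167, 188 and 169 CPM with si Ctrl, 169, 158 and 136 CPM with si mH2A1.1 and 199, 208 and 209 CPM with si mH2A1.2. Its si mH2A1.2 samples were higher than all the others. Between the knockdowns the log2 fold change came to -0.41 (standard error 0.10, adjusted p = 0.0182), and the call was lost without si mH2A1.1 replicate 3 (adjusted p = 0.0692), si mH2A1.2 replicate 2 (0.0651) or si mH2A1.2 replicate 3 (0.0518).

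Serpinh1, the collagen-specific chaperone Hsp47 (ENSMUSG00000070436, chromosome 7, 99345376 to 99353239, minus strand), was at 1376, 1165 and 921 CPM with si Ctrl, 1079, 1151 and 818 CPM with si mH2A1.1 and 1767, 1496 and 1159 CPM with si mH2A1.2. Replicate 3 was the lowest in each condition, and the knockdowns did not overlap each other, though by a narrow margin. The difference between them was -0.54 (standard error 0.20, adjusted p = 0.0824, and 0.00703 with the replicate block, 0.0432 from DESeq2). Against si Ctrl the values were -0.18 (95% interval -0.63 to 0.26) and 0.35 (-0.10 to 0.80).

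Creb3l1 had the smallest adjusted p of all members. It encodes OASIS, a transmembrane factor of the ER that is released by cleavage and is known as an activator of type I collagen transcription (ENSMUSG00000027230, chromosome 2, 91982328 to 92024502, minus strand). Its level was 70.8, 87.7 and 74.9 CPM with si Ctrl, 54.4, 68.4 and 51.1 CPM with si mH2A1.1 and 142, 112 and 109 CPM with si mH2A1.2. The 3 conditions did not overlap, with si mH2A1.1 lowest and si mH2A1.2 highest. The direct comparison gave -1.06 on the log2 scale (standard error 0.15, adjusted p = 0.0012), a 2.09-fold lower level, called without each of the 9 samples in turn. It was the 1 member past the stricter rule, an adjusted p below 0.01 together with a log2 difference of 0.8 or more in size, which 6.38% of all genes passed. Against si Ctrl it was -0.42 with si mH2A1.1 (adjusted p = 0.0817) and 0.64 with si mH2A1.2 (adjusted p = 0.0505, with 0.0311 under the block and 0.0037 from DESeq2).

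**Figure D3:**
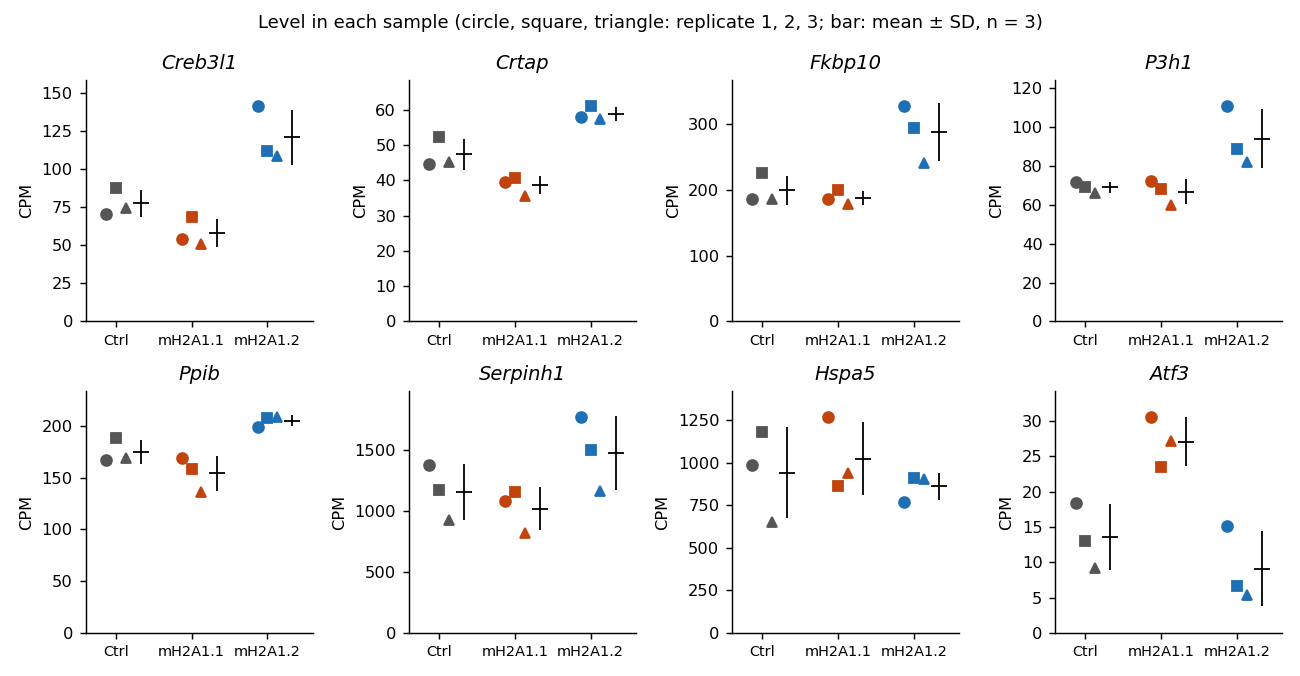
CPM of 8 members in each sample (vertical axes from 0), with the mean ± SD (n = 3) beside each condition. Creb3l1, Crtap, Fkbp10, P3h1 and Ppib are highest in the si mH2A1.2 samples, Atf3 is highest in the si mH2A1.1 samples, and the conditions overlap for Hspa5.

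The general chaperones did not show this arrangement. Hspa5, the central ER chaperone and the usual readout of the unfolded protein response (ENSMUSG00000026864, chromosome 2, 34771970 to 34777547, plus strand), was at 988, 1182 and 653 CPM with si Ctrl, 1268, 865 and 938 CPM with si mH2A1.1 and 771, 913 and 903 CPM with si mH2A1.2. The control samples alone spanned nearly the whole range, and all conditions overlapped. Relative to si Ctrl the log2 values were 0.12 for si mH2A1.1 (95% interval -0.36 to 0.60, adjusted p = 0.744), -0.13 for si mH2A1.2 (-0.60 to 0.35, adjusted p = 0.84) and 0.25 between the knockdowns (-0.23 to 0.73).

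Hsp90b1 (Grp94) and the lectin chaperones were estimated more narrowly than Hspa5. With si mH2A1.2 against si Ctrl the 95% interval was -0.26 to 0.25 for Canx, calnexin, -0.36 to 0.40 for Hsp90b1 and -0.19 to 0.52 for Calr, calreticulin. With si mH2A1.1 it was -0.17 to 0.33, -0.34 to 0.42 and -0.10 to 0.62 in the same order of genes. Hyou1, the large exchange factor of Hspa5, had log2 fold changes of 0.051 and -0.045, and those of the secreted stress proteins Creld2 and Manf were -0.23 and -0.23 with si mH2A1.1 and -0.16 and -0.020 with si mH2A1.2. None of these 6 genes was called in any comparison by edgeR, with or without the block, or by DESeq2, and 0 of them had an unadjusted p under 0.05.

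Dnajb11 (ERdj3), a cochaperone of Hspa5, was at 81.7, 75.3 and 74.0 CPM with si Ctrl, 117, 89.6 and 89.8 CPM with si mH2A1.1 and 86.1, 74.4 and 77.8 CPM with si mH2A1.2, with the si mH2A1.1 samples above all others. They differed from si Ctrl by 0.36 on the log2 scale (adjusted p = 0.0744, and 0.0192 with the replicate block) and from si mH2A1.2 by 0.31 (adjusted p = 0.0808, and 0.0219 with the block). Sdf2l1, which works with Dnajb11, was 0.81 between the knockdowns (adjusted p = 0.0856, 0.0436 from DESeq2 and 0.0402 without si mH2A1.1 replicate 2), at 4.05 to 14.9 CPM in the 9 samples. Dnajb9 (ERdj4), a repressor of Ire1, had a value of -0.31 (adjusted p = 0.0819).

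Among the disulfide isomerases, 0 of 4 were called in any comparison by edgeR with all samples, and 1, 0 and 1 had an unadjusted p under 0.05 in the comparisons of si mH2A1.1 and of si mH2A1.2 with si Ctrl and in the direct comparison. P4hb, the member with a direct part in collagen hydroxylation, was at 810.0, 1044 and 837 CPM with si Ctrl, 799, 833 and 767 CPM with si mH2A1.1 and 900.3, 1041 and 1233 CPM with si mH2A1.2, and the knockdowns did not overlap. Their difference was -0.40 (adjusted p = 0.0713, 0.0518 with the block and 0.0385 from DESeq2, and 0.0339 without si mH2A1.2 replicate 1). Pdia3, which folds glycoproteins with calnexin and calreticulin, lay above si Ctrl with both siRNAs, at 0.42 (adjusted p = 0.12) and 0.26 (adjusted p = 0.502). Pdia4 and Pdia6 lay between -0.17 and 0.18 in all comparisons.

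Of the genes for entry, exit and disposal, 0 of 4 were called by edgeR without the block or by DESeq2, and 0 had an unadjusted p under 0.05. Mia3 (TANGO1), which loads procollagen into transport carriers, was at 106, 98.5 and 100.5 CPM with si Ctrl, 104, 97.1 and 99.96 CPM with si mH2A1.1 and 115, 109 and 105 CPM with si mH2A1.2. All si mH2A1.2 samples were above the si mH2A1.1 samples, yet the 95% interval of the log2 fold change between the knockdowns was -0.31 to 0.048. Sec61b, a translocon subunit, was -0.41 in that comparison (adjusted p = 0.196, and 0.0352 with the replicate block). The disposal genes Herpud1 and Edem1 had values of -0.31 and -0.21, with adjusted p = 0.398 and 0.443.

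Xbp1, the factor spliced by Ire1 (ENSMUSG00000020484, chromosome 11, 5520659 to 5525893, plus strand), was at 159, 171 and 130.4 CPM with si Ctrl, 108, 130.3 and 93.3 CPM with si mH2A1.1 and 134, 159 and 153 CPM with si mH2A1.2. The si mH2A1.1 samples were the lowest, by a margin of under 1 CPM at the nearest pair, and si mH2A1.2 overlapped si Ctrl. It differed from si Ctrl by -0.47 on the log2 scale (standard error 0.14, adjusted p = 0.0582, with 0.0176 under the replicate block and 0.0278 from DESeq2) and from si mH2A1.2 by -0.43 (adjusted p = 0.0559, with 0.0166 and 0.0423). The gene total does not separate spliced from unspliced Xbp1. The sensors were even by comparison, with log2 fold changes of -0.10 and 0.026 for Atf6, 0.15 and 0.16 for Ern1, and -0.11 and -0.10 for Eif2ak3, with si mH2A1.1 and si mH2A1.2 against si Ctrl. None of these sensors was called by edgeR or DESeq2, and 0 had an unadjusted p under 0.05.

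Atf3 was the 1 member called higher with si mH2A1.1 than with si mH2A1.2. This stress-induced factor (ENSMUSG00000026628, chromosome 1, 191170296 to 191218039, minus strand) was at 18.4, 12.98 and 9.15 CPM with si Ctrl, 30.6, 23.6 and 27.2 CPM with si mH2A1.1 and 15.2, 6.71 and 5.32 CPM with si mH2A1.2. All si mH2A1.1 samples were above all others, while si mH2A1.2 overlapped si Ctrl, and replicate 1 was the highest in each condition. Between the knockdowns the log2 difference amounted to 1.581 (standard error 0.37, adjusted p = 0.0133, a 2.99-fold higher level), and the call was lost without si mH2A1.1 replicate 1 (adjusted p = 0.0502) or si mH2A1.2 replicate 2 (0.061). Against si Ctrl it was 1.00 (adjusted p = 0.0938, with 0.0134 under the block and 0.0295 from DESeq2).

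Atf4 itself (ENSMUSG00000042406, chromosome 15, 80255184 to 80257541, plus strand), which is controlled mainly at translation, was at 399, 403 and 356 CPM with si Ctrl, 322, 425 and 285 CPM with si mH2A1.1 and 470.2, 389.5 and 409 CPM with si mH2A1.2. In the si mH2A1.1 samples replicate 2 was above every control and the other samples were below every control. The difference from si Ctrl was -0.17 on the log2 scale for si mH2A1.1 (adjusted p = 0.488) and 0.13 for the other siRNA (adjusted p = 0.741). Ddit3 (CHOP, ENSMUSG00000025408, chromosome 10, 127290774 to 127296288, plus strand) was at 44.6, 89.1 and 32.4 CPM, 45.6, 44.8 and 43.7 CPM and 50.6, 57.7 and 51.6 CPM in the same order. The controls spread more widely than both knockdowns, with si Ctrl replicate 2 far above the others, and the adjusted p was 0.504 and 0.953. A second annotated entry with this symbol overlaps the gene, had 6 to 38 counts per sample and was not used, and reads could be split between both.

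The amino acid genes showed a wide spread within si mH2A1.1. Asns, asparagine synthetase, which is named here after its values were seen (ENSMUSG00000029752, chromosome 6, 7675169 to 7693254, minus strand), was at 277, 199.99 and 182 CPM with si Ctrl, 58.4, 270.4 and 74.5 CPM with si mH2A1.1 and 284, 216 and 154 CPM with si mH2A1.2. In si mH2A1.1 replicates 1 and 3 it was below every other sample, while replicate 2 was within the control range. The level of the 7 genes, as the mean log2(CPM + 0.5) minus the si Ctrl mean, was -1.13, 0.39 and -1.03 in the si mH2A1.1 samples, -0.23 to 0.32 with si Ctrl and -0.34 to 0.52 with si mH2A1.2. With all samples, 0 of the 7 genes were called in any comparison by edgeR or DESeq2 (0, 0 and 1 at an unadjusted p under 0.05), although the medians from si Ctrl were -0.43 and 0.11 and the median between the knockdowns was -0.55.

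The result turned on that library. Without si mH2A1.1 replicate 2, 9 members were called lower and 0 higher with si mH2A1.1 than with si Ctrl, beside 6.39% and 8.18% of all 20096 genes then tested. They were the amino acid genes Asns (-1.73, adjusted p = 0.00593), Mthfd2, a mitochondrial folate enzyme (-1.32, adjusted p = 0.00783), Slc7a5 and Slc3a2, the light and heavy chain of an amino acid exchanger (-1.26 and -0.86), and Phgdh, which starts serine synthesis (-1.00), with the Atf4 targets Trib3 (-1.38) and Chac1 (-1.33) and the factors Xbp1 (-0.61) and Creb3l1 (-0.56), the last 7 with adjusted p between 0.0149 and 0.0487. The serine pathway gene Psat1 and Shmt2 were not called, with all samples or without this one. Against si mH2A1.2 the calls went from 5 to 14 lower and from 1 to 2 higher, beside 10.6% and 12.4% of all genes. This alternative was not chosen to replace the values above, and a condition of 2 samples is assumed in it to vary like the others.

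Some other measures of the same library also lay at one end of its condition, as all but the middle one of 3 samples must. Among the si mH2A1.1 samples in the order of replicate numbers, the interferon list was 3.18, 2.34 and 4.24 above the si Ctrl mean, the matrix clients were at -1.38, -0.65 and -0.91, and the proliferation markers were at 1.23, 0.12 and 0.67, all as mean log2(CPM + 0.5). In other lists replicate 2 lay in the middle. On the same scale and in the same order, the chaperones were at 0.33, -0.053 and -0.064 and the disulfide isomerases at 0.28, -0.0045 and -0.074. The myoblast markers were at -0.065, -0.088 and -0.19. The H2afy total, which does not separate the isoforms, was 38.8, 30.01 and 30.9 CPM in the same order, with replicates 2 and 3 close together. The part of these differences in the amino acid genes was not tested.

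**Figure D4:**
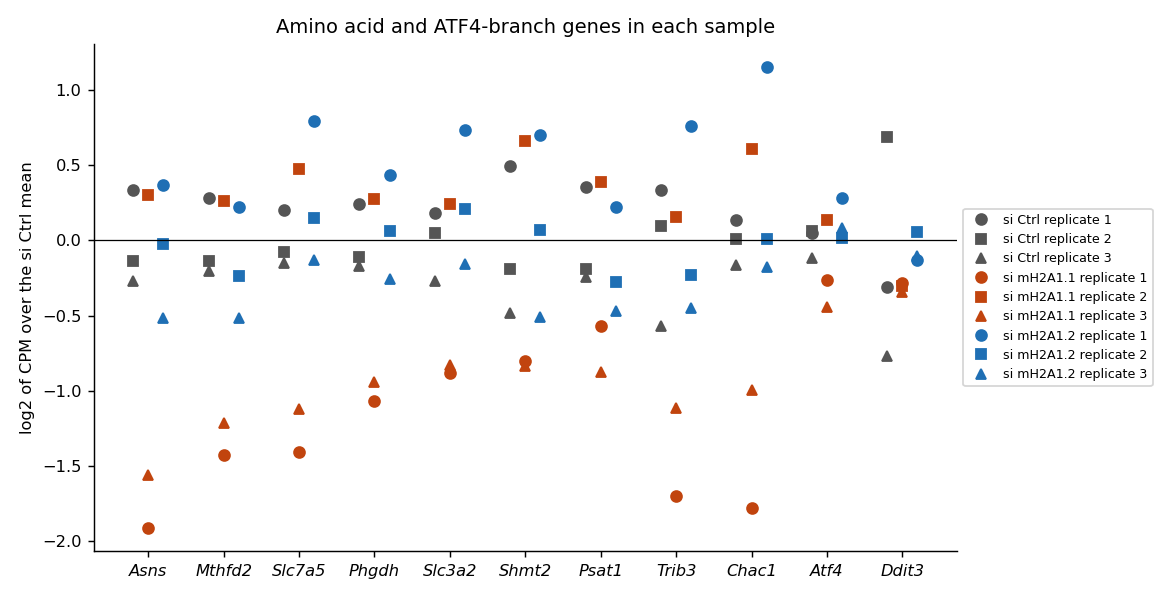
Level of the 7 amino acid genes, Trib3, Chac1, Atf4 and Ddit3 in each sample, as the log2 of its CPM over the si Ctrl mean (vertical axis), with colours for the conditions and symbols for the replicate numbers. The si mH2A1.1 replicates 1 and 3 are the lowest of the 9 samples for the 7 amino acid genes, Trib3 and Chac1, and si mH2A1.1 replicate 2 lies above 0 for these genes.

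Further genes of the same pathways were taken from lists made by name. Of 25 tested genes of collagen modification and export outside the 40, 20 were called lower and 0 higher between the knockdowns. Against si Ctrl 8 fell with si mH2A1.1 and 2 rose with the other siRNA (medians -0.79, -0.38 and 0.25, the first between the knockdowns). Of all genes, 10.5%, 4.93% and 1.37% were called in these directions. With the block the counts against si Ctrl were 13 lower and 4 higher, beside 9.70% and 2.90% of all genes. Fkbp14, an isomerase of the same family as Fkbp10, was at 25.6, 28.0 and 27.6 CPM with si Ctrl, 19.1, 18.6 and 19.3 CPM with si mH2A1.1 and 37.4, 36.3 and 34.8 CPM with si mH2A1.2. It fell with si mH2A1.1 (-0.51, adjusted p = 0.00835) and rose with si mH2A1.2 (0.42, adjusted p = 0.039), with no overlap between conditions. Fkbp9 fell by 0.71 on the log2 scale with si mH2A1.1 (adjusted p = 0.00464), Sec24d, a coat subunit that procollagen export depends on, by 0.99 (adjusted p = 0.00544) and the cargo receptor Lman1 by 0.69 (adjusted p = 0.01). Their values with si mH2A1.2 were 0.25, 0.24 and 0.26, and did not pass the test.

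Of 42 tested genes of general ER folding, glycosylation and quality control outside the 40, 8 were called lower between the knockdowns and 5 lower with si mH2A1.1, 0 were called higher in these comparisons, and 0 were called with si mH2A1.2 (4 at an unadjusted p under 0.05, 0 by DESeq2), with medians of -0.14, -0.097 and 0.073. Of all genes, 10.5% were called lower between the knockdowns and 4.93% with si mH2A1.1. The block raised the count of this list with si mH2A1.1 to 9 lower, beside 9.70% of all genes. The named ones were Ssr3, a translocon-associated subunit, which fell by 0.60 on the log2 scale with si mH2A1.1 (adjusted p = 0.0118), Edem3, which trims glycans for disposal, by 0.40 (adjusted p = 0.0487), and Dad1, a subunit of the oligosaccharyl transferase, by 0.56 (adjusted p = 0.0273). Ero1l, the oxidase that recharges the disulfide isomerases, was -2.11 between the knockdowns (adjusted p = 0.0143). Its si mH2A1.2 samples were at 326, 463 and 1185 CPM, with replicate 3 far above the others.

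Of 41 other Atf4 targets and genes of the eIF2α pathway, 1 was called higher and 8 lower between the knockdowns, 1 higher and 0 lower with si mH2A1.1, and 0 in either direction with si mH2A1.2 (4 at an unadjusted p under 0.05, 0 by DESeq2), with medians of -0.30, -0.20 and 0.16. Of all genes, 12.0% were called higher and 10.5% lower between the knockdowns, and 6.18% higher with si mH2A1.1. With the block, 3 of the 41 were lower with si mH2A1.1 and 2 were higher between the knockdowns, beside 9.70% and 15.4% of all genes. The gene called higher was Eif2ak2 (PKR), the eIF2α kinase that binds double-stranded RNA and is itself interferon-induced. It was at 37.0, 36.6 and 33.6 CPM with si Ctrl, 78.6, 60.6 and 119 CPM with si mH2A1.1 and 36.7, 33.4 and 33.8 CPM with si mH2A1.2. Relative to si Ctrl this was a log2 difference of 1.27 (adjusted p = 0.00574) and -0.044 (adjusted p = 0.944), and every si mH2A1.1 sample was above all others. The called genes with the smallest p in the other direction were Nupr1 (-1.20), Vldlr (-2.51) and Sesn2 (-1.16) between the knockdowns, known targets of the Atf4 branch. In si mH2A1.1 replicate 2 they were at 77.3, 7.95 and 38.0 CPM, the highest of that condition.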

How the data were processed

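The deposited values are estimated counts per gene (expected counts), which the authors made with Salmon on GRCm38 (mm10 in the submitters' processing notes) from single reads and deposited as whole numbers without normalization. The annotation release is not given in the sources used here. Names, positions and exon lengths came from GENCODE M21, which lacks 18 of the 52780 genes. A second deposited table, the same counts divided by a size factor per sample, was not used. The members, lists and tests were chosen with earlier results of these data known.

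The counts were tested in R 4.3.3 with edgeR 4.0.16 (legacy quasi-likelihood form, TMM, filterByExpr on the conditions, Benjamini-Hochberg adjustment over 19545 genes), with all 9 samples and 3 contrasts in the same model. Adjusted p-values are from edgeR unless DESeq2 (1.42.0) is named, and intervals of fold changes are 95% intervals from the model. Scripts were tested on simulated data. Described in each sample were the members called in any contrast, with Hspa5, Serpinh1, Xbp1, Atf4 and Ddit3. From other lists at most 4 called genes with the smallest adjusted p were named, with Col1a1, Col1a2 and Fn1.

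Replicate numbers are shared between conditions by the labels, and library names run in sequence within a number. Deviations of log2(CPM + 0.5) from the condition mean correlated at r = 0.101 to 0.475 in the 9 pairs of samples with the same number (mean 0.23, across genes), and at -0.12 on average between different numbers, so the numbers were taken to pair the samples. The model above has no replicate term, and the fit with the number as a block is given where it changes a member's call. For the other lists and the markers the block is given for some comparisons only. The labels name no shared batch, and the lowest r is at the limit of 0.1 used. At the depth of these samples 3 counts are 0.0691 to 0.0826 CPM, and members had at least 147 counts in every sample. Alternatives were other filters, DESeq2, its size factors in edgeR, the newer form of the edgeR test, the replicate block, a stricter call, the samples of the 2 conditions only, and leaving out each sample.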

Additional observations from a re-analysis of the deposited data

How the results depend on the processing

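No member changed direction under any alternative in a comparison where it was called. Numbers of members called moved by over 1.5 times as follows, beside 0 higher and 0 lower for si mH2A1.1 against si Ctrl: 1 and 1 without a filter, 1 and 1 with DESeq2, 2 and 2 with the replicate block, 1 higher with only the samples of the 2 conditions, and 0 to 1 higher and 0 to 9 lower when a sample was left out (9 without si mH2A1.1 replicate 2). For si mH2A1.2 against si Ctrl, beside 0 higher, they were 2 without a filter, 1 with at least 10 counts in every sample, 3 with DESeq2, 3 with the block and 0 to 1 with a sample left out. Its median of 0.12 ranged from 0.0019 (without si Ctrl replicate 3) to 0.19. Between the knockdowns, beside 1 higher and 5 lower, they were 0 and 1 by the stricter rule, 2 and 8 with DESeq2, 2 and 8 with the block, and 0 to 2 higher and 3 to 14 lower with a sample left out, where si mH2A1.1 replicate 2 gave 14 and si mH2A1.1 replicate 3 gave 3. The block, which pairs samples by number, changed no member's call other than those given in the text. Over all members, contrasts and alternatives other than the stricter rule, 52 values gained a call and 6 lost it, and the cause was not tested. Precision of the amino acid genes is limited by the spread between 3 samples, with standard errors of 0.31 to 0.49 on the log2 scale against si Ctrl.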
